A study of Mus musculus with 4 samples.

Results

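The small RNA genes described here guide the chemical modification of other RNAs or form the core of the splicing machinery. They were taken by symbol, as every row of the gene table named Snora, Snord, Scarna or Rnu followed by a digit, which gave 164 of 49568 rows. By name, 41 were classed as H/ACA box small nucleolar RNAs (snoRNAs) and 103 as C/D box snoRNAs, with the U3 genes named Rnu3 among the latter. Another 9 were small Cajal body RNAs (scaRNAs) and 10 were spliceosomal small nuclear RNAs (snRNAs). Rnu73b was counted as H/ACA throughout, though its 71 bases and its host Rps3a1, shared with the C/D gene Snord73a, are more like a C/D gene. It had 9 reads and was not tested, but it enters the H/ACA counts and sums. The U7 gene Rnu7, whose RNA acts in the processing of histone mRNA ends, belonged to none of these 4 classes. All 164 symbols were found in the GENCODE M21 annotation of the mouse genome build GRCm38.

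The study sequenced total RNA of migrasomes, vesicles that grow on the fibres a migrating cell trails behind it, and of cytosol, in 2 libraries per group, all from mouse. The labels used here name no genotype, strain, treatment, age or cell type, and do not say whether replicates came from separate cultures. The p-values therefore measure the spread among these libraries alone, which may be technical. Gene-assigned reads numbered 7529136 for the first and 8608369 for the second cytosol replicate, and 5228713 and 5171092 for the migrasome replicates. Values are the deposited normalised read counts, in which 1 read is worth 0.776 and 0.686 in cytosol and 1.41 and 1.32 in migrasome. Values of a group are given with replicate 1 first.

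Small RNAs of these kinds work as RNA-protein particles. A C/D box RNA carries a protein set that adds methyl groups to the RNA it pairs with, and an H/ACA box RNA carries one that turns uridine into pseudouridine. Most guide RNAs of both kinds act on ribosomal RNA in the nucleolus, while scaRNAs act on spliceosomal RNAs in the Cajal body, and a few snoRNAs, U3 first among them, take part in cutting the ribosomal precursor. Spliceosomal RNAs pair with splice sites and branch points of pre-mRNA, and U11 and U12 do so in the minor spliceosome, which removes a rare class of introns. Most vertebrate snoRNAs are cut out of the introns of host genes, and most of these RNAs reside in the nucleus once mature.

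The sequences below are those of 4 of the 5 C/D box RNAs with enough reads to be tested, read 5′ to 3′ as DNA letters on the RNA's strand from GENCODE M21 transcripts. Capitals mark the letters of box C (TGATGA) and of the last box D (CTGA) after it, where the particle's core proteins assemble. This set holds both the most abundant RNA of all 164 and the only one among the tested genes with a difference above 0.
Rnu3a: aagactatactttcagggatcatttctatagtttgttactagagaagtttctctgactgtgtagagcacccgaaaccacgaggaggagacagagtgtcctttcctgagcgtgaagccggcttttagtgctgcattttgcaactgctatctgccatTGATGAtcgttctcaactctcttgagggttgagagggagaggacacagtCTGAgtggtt
Snord15a: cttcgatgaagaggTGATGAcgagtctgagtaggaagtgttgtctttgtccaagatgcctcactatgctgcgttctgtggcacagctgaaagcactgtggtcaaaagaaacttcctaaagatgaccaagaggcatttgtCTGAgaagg
Snord17: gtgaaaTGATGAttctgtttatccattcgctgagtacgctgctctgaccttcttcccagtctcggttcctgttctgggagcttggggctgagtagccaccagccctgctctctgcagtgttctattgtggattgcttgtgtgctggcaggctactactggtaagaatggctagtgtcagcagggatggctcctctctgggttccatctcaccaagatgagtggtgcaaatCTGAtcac
Snord118: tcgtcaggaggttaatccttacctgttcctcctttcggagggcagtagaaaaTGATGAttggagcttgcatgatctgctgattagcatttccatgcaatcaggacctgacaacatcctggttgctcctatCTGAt

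Rnu3a, the U3 RNA, lies at chr10:40258467-40258680 on the plus strand and is 214 bases long. Snord15a (148 bases, chr7:99482785-99482932, minus strand) lies in an intron of Rps3, and Snord17 (238 bases, chr2:144265979-144266216, minus strand) in an intron of Snx5. Snord118 (135 bases, chr11:69073427-69073561, plus strand) lies in no host gene. TGATGA followed later by CTGA, searched on the RNA's strand only, was found in 79 of the 103 C/D box genes and in 5 of the 5 tested. Among the first bases of all annotated transcripts, cut to the same length, the letters occurred in 3.34% for Rnu3a, 1.61% for Snord15a, 4.14% for Snord17 and 1.35% for Snord118. A match describes the letters alone and is no site shown to be used.

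Reads were found for 60 of the 164 genes, and 24 reached a value of 10 in 2 or more libraries and were tested. The tested set held 11 of 41 H/ACA genes, 5 of 103 C/D genes, 6 of 9 scaRNA genes and 2 of 10 spliceosomal genes. Differences are those of log2(value + 1), migrasome less cytosol, which understates changes of low genes, with a standard error (SE) and a p-value from limma over all 10860 tested genes, adjusted by Benjamini-Hochberg, with a threshold of 0.05. Of the 24, 18 were lower in migrasome, 0 were higher and 6 did not pass, where 17.7% of all tested genes were lower and 8.68% were higher. By edgeR on the recovered reads 19 were lower and 0 higher (19% and 9.86% of all genes), and by DESeq2 13 were lower and 0 higher (14.7% and 10.5%). At an unadjusted limma p under 0.05, 20 were lower and 0 higher, where 24.2% and 17.4% of all genes were. In bulk libraries, fewer vesicles or cells that hold an RNA and less of it in each cannot be told apart.

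5 of the 24 reached the minimum of 10 through the cytosol libraries alone, so the minimum itself favoured a lower value in migrasome, and the counts over the 24 are not read as support. Of the other 19, 14 were lower and 5 did not pass, with a median of -1.42. Among all genes that did not enter through cytosol alone, 17.1% were lower and 8.86% higher, with a median of 0.016. All 10 genes with a mean of at least 50 over the 4 libraries were lower, where 18.7% of all genes at that mean were. In 16 of the 19, both migrasome libraries lay below both cytosol libraries, which was so for 35% of all genes so restricted. Without cytosol replicate 1 the count of lower genes was 11 of 19 tested (10.3% of all genes), and without cytosol replicate 2 it was 12 of 18 (10.5%). In both settings 0 were higher, where 2.49% and 2% of all genes were. With no filter on low values 14 of 60 tested were lower, where 7.07% of all genes were. With quantile normalization 14 of 24 were, where 12.9% were, and with the same total per library 19 of 24 were, where 23.2% were. None was higher in these 3 settings, where 2.06%, 11% and 2.97% of all genes were.

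**Figure D1:**
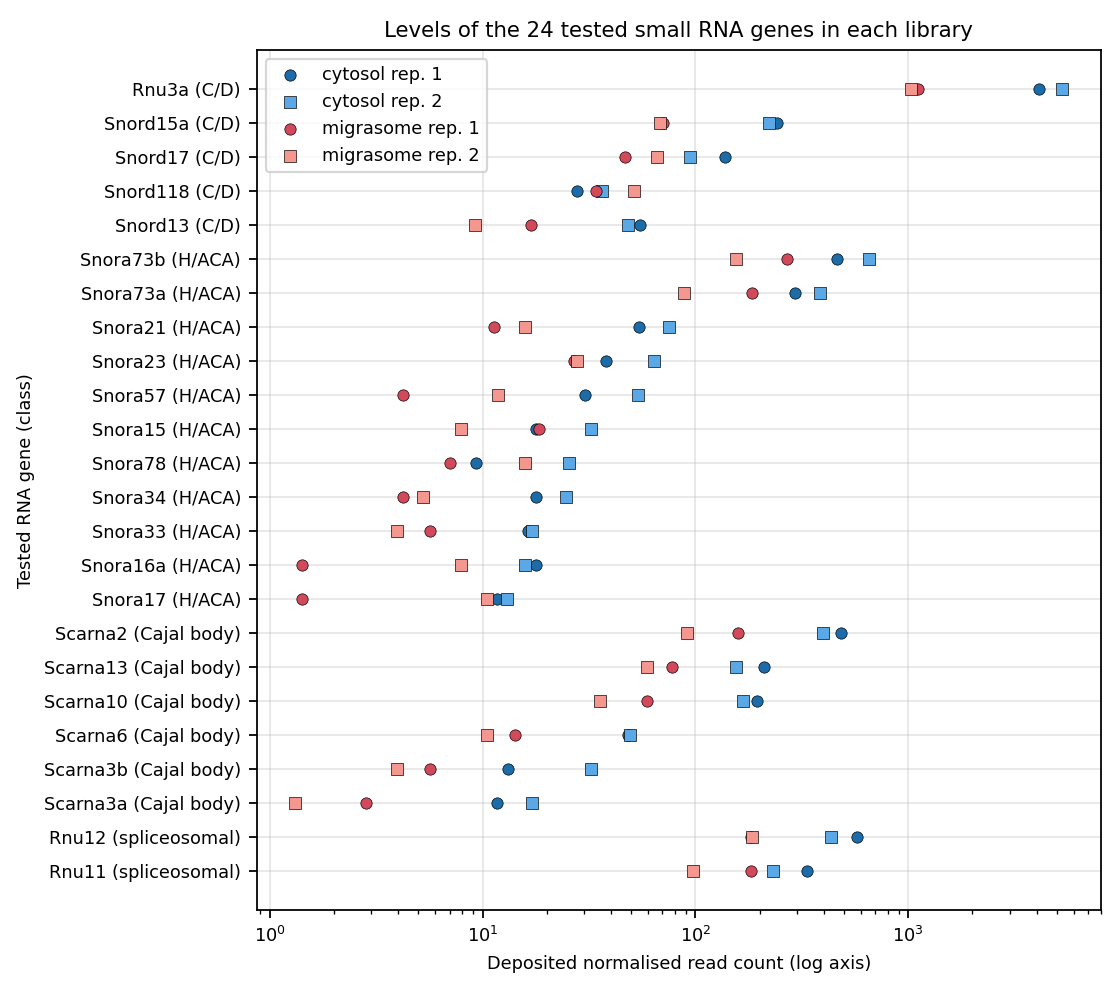
Deposited normalised read count (log axis) of each of the 24 tested small RNA genes, by class, in the 2 cytosol (blue) and 2 migrasome (red) libraries. Rnu3a stands highest in all 4 libraries, and Snord118 is the tested C/D gene whose groups overlap.

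Rnu3a was the most abundant of these RNAs, also per length, with a mean over the 4 libraries of 13474 per kilobase, ahead of Rnu12 at 2282 and Snora73b at 1878. The U3 RNA takes part in the early cuts of the ribosomal precursor that release the small subunit RNA. Its normalised read count was 4101 and 5294 in cytosol and 1114 and 1025 in migrasome. The groups were far apart, 4697 ± 843 against 1069.8 ± 63.1 (SD, n = 2 each), and each library held at least 779 reads of it. Its difference was -2.12 ± 0.22 (SE, adjusted p = 0.000507), or 4.39-fold lower in migrasome, and the call held under all 14 alternative settings.

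Snord15a, a methylation guide for large subunit ribosomal RNA, stood at 240 and 222 in cytosol and at 70.7 and 68.4 in migrasome. Replicates lay close together and the groups were apart, with a difference of -1.72 ± 0.24 (adjusted p = 0.00094). Snord13, a C/D box RNA that takes part in acetylation of the small subunit RNA, stood at 55.1 and 48.0 against 17.0 and 9.21. It fell as well, with a difference of -1.95 ± 0.40 (adjusted p = 0.00706). Snord17, a longer C/D guide, stood at 137 and 94.0 against 46.7 and 65.8. Its groups did not overlap, and the difference of -1.02 ± 0.31 was near the threshold (adjusted p = 0.036). DESeq2 gave Snord17 an adjusted p of 0.0518 and limma with no trend 0.0558, and leaving out cytosol replicate 1 or migrasome replicate 1 ended its call, with differences of -0.75 and -0.78.

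Snord118, the U8 RNA of ribosomal precursor processing for the large subunit, was the C/D gene that did not pass. It stood at 27.9 and 36.4 in cytosol and at 33.9 and 51.3 in migrasome, so migrasome replicate 1 lay between the cytosol libraries. Its difference was 0.38 ± 0.35 (adjusted p = 0.43), on 36 and 53 reads in cytosol and 24 and 39 for the migrasome libraries. Set against Rnu3a within each library, the log2 ratio was -7.15 and -7.15 in cytosol and -5.00 and -4.29 in migrasome. Like the other ratios of single genes given here, these are of value + 1, so they depend little on how a library was scaled. They were higher in both migrasome libraries by a mean of 2.50. The pair joins the tested C/D genes with the highest and the lowest difference, so a gap was given by the choice. Snord118 lies 134 bases downstream of Tmem107, a protein-coding gene on the same strand, whose values of 109, 89.2, 94.8 and 64.5 gave a difference of -0.33 ± 0.29 (adjusted p = 0.41). The ratio of Snord118 to Tmem107 overlapped between the groups, at -1.92 and -1.27 in cytosol and -1.45 and -0.32 in migrasome. A row named Gm24208, at another locus, is 94.8% identical to Snord118, and the sources used here do not say how reads that fit several places were treated.

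The H/ACA genes are led by Snora73a and Snora73b, the U17 RNAs, which act in ribosomal precursor cutting and are the longest of their class. They are shown because they differ at 7 of 205 bases (capitals), so reads could be shared between them. Snora73a lies at chr4:132352775-132352979 and Snora73b at chr4:132352322-132352526, both on the minus strand inside Snhg3, a non-coding host gene, the second in an intron and the first partly over an exon.
Snora73a: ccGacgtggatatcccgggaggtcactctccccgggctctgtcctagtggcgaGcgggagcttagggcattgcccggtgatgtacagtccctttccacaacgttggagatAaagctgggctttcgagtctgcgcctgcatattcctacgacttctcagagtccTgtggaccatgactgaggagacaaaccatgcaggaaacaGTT
Snora73b: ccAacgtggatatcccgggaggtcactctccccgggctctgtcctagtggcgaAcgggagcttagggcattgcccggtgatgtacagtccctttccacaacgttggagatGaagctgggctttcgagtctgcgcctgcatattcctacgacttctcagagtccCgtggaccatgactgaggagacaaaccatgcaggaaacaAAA

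Snora73b stood at 460 and 656 in cytosol and at 269 and 155 in migrasome, and Snora73a at 292 and 383 against 185 and 88.2. Both fell without overlap of the groups, with differences of -1.42 ± 0.29 (adjusted p = 0.00734) for Snora73b and -1.38 ± 0.33 (adjusted p = 0.0153) for Snora73a. The log2 ratio of Snora73b to Snora73a was 0.65, 0.78, 0.53 and 0.81 in the 4 libraries and overlapped between the groups. Both also overlap exons of Gm17300 on the other strand, and the sources used here do not say whether counting used strand.

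Among the shorter H/ACA RNAs, Snora21 and Snora57 had the largest called differences of the class, and Snora23 did not pass. Capitals mark the ACA near the end that gives the class its name.
Snora21: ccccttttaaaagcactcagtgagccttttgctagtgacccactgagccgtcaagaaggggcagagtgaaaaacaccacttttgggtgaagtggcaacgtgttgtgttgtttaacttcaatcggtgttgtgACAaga
Snora57: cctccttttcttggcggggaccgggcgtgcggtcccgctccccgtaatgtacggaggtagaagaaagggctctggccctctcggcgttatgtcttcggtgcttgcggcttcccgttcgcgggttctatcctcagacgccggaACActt
Snora23: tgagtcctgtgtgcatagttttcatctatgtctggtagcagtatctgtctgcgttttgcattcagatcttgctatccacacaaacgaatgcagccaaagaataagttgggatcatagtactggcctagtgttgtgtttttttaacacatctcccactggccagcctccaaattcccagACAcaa

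The motif searched was ACANNN at the annotated end, on the RNA's strand only, and it was found in 34 of the 41 H/ACA genes and in 10 of the 11 tested. Among transcript starts cut to the same lengths it ended 1.55% for Snora21, 1.75% for Snora57 and 1.84% for Snora23. Snora21 (chr11:97781639-97781775, minus strand, in an intron of Rpl23) stood at 54.3 and 75.4 in cytosol and at 11.3 and 15.8 in migrasome. The groups were far apart, and its difference was -2.18 ± 0.37 (adjusted p = 0.00256). Snora57 (chr19:8888538-8888685, minus strand) stood at 30.3 and 53.5 against 4.24 and 11.8, with 3 and 9 reads in the migrasome libraries. Its difference was -2.33 ± 0.52 (adjusted p = 0.0112), and without cytosol replicate 2 the call was lost at -1.93. With migrasome replicate 1 left out the difference was -1.68, and with replicate 2 left out it was -2.98. Copies at least 95% identical to Snora21 and to Snora57 lie elsewhere in the annotation.

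Snora23 (chr7:110046364-110046547, plus strand, in an intron of Ipo7) stood at 38.0 and 63.8 in cytosol and at 26.9 and 27.6 in migrasome. The groups did not overlap, and the difference of -0.83 ± 0.36 did not pass (adjusted p = 0.11). Snora34 (-1.94 ± 0.48, adjusted p = 0.0175) and Snora33 (-1.63 ± 0.50, adjusted p = 0.0382) fell, both tested through their cytosol levels alone, and DESeq2 gave neither call. Snora16a, at 17.8 and 15.8 against 1.41 and 7.90, was also tested through cytosol alone and did not pass (-1.94 ± 0.66, adjusted p = 0.0547). It passed by edgeR. Snora15 (-0.93), Snora78 (-0.50) and Snora17 (-1.34) did not pass, and each had a migrasome library at or near the cytosol level. For Snora78 the difference was 0.026 without migrasome replicate 1.

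All 6 tested scaRNA genes were lower in migrasome, where 17.7% of all tested genes were. Of the 6, 2 (Scarna3a and Scarna3b) were tested through their cytosol levels alone, so the count of 6 is not read as support. Each of the others was lower as well, where 17.1% of all genes not tested through cytosol alone were. Scarna2, a guide for the U2 snRNA and the longest RNA of the 164 at 414 bases, stood at 485 and 396 in cytosol and at 158 and 90.8 in migrasome. The groups were apart by more than their spread, with a difference of -1.86 ± 0.29 (adjusted p = 0.00161). Scarna10, which guides modification of the U5 snRNA, stood at 194 and 168 against 59.4 and 35.5, and its difference was -1.95 ± 0.30 (adjusted p = 0.0017). Scarna13 stood at 211 and 154 against 77.8 and 59.2, and its difference was -1.40 ± 0.28 (adjusted p = 0.00591). The call of Scarna13 was lost without cytosol replicate 1, where the difference was -1.17.

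Scarna6, at 48.1 and 49.4 against 14.1 and 10.5, fell by 1.91 ± 0.37 on the log2 scale (adjusted p = 0.00513). Its cytosol libraries agreed closely, and without cytosol replicate 2 the call was lost at a difference of -1.89. Scarna3a and Scarna3b, H/ACA scaRNAs that are 85.0% identical over Scarna3a's length, rested on 1 to 4 reads in each migrasome library. Scarna3a stood at 11.6 and 17.1 against 2.83 and 1.32 (-2.35 ± 0.60, adjusted p = 0.0192), and Scarna3b at 13.2 and 32.2 against 5.66 and 3.95 (-1.92 ± 0.56, adjusted p = 0.0311). DESeq2 called neither. Of the other scaRNA genes, Scarna8 had 2 reads in all, and Scarna9 and Scarna17 were listed at 0 in every library.

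The 2 tested spliceosomal genes were both of the minor spliceosome. U11 pairs with the 5′ splice site and U12 with the branch point of a minor intron. Their sequences are shown for the letters that the ring of Sm proteins is known to bind (capitals, ATTTTTG or ATTTTTTG).
Rnu11: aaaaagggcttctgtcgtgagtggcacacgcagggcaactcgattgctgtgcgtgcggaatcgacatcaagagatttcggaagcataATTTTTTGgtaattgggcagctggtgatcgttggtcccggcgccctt
Rnu12: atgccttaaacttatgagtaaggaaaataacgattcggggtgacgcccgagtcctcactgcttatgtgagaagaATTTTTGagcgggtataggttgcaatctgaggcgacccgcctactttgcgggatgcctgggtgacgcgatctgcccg

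Either spelling, searched on the RNA's strand only, was found in 4 of the 10 spliceosomal genes, and in 1.06% and 1.21% of transcript starts cut to the lengths of Rnu11 and Rnu12. Rnu12 (151 bases, chr15:83149644-83149794, plus strand) stood at 576 and 436 in cytosol and at 182 and 184 in migrasome. The migrasome libraries lay within 2 units of each other and far below cytosol, with a difference of -1.45 ± 0.23 (adjusted p = 0.0017). Rnu11 (134 bases, chr4:132270080-132270213, minus strand) stood at 335 and 231 against 182 and 97.4. Its groups did not overlap, and the difference of -1.06 ± 0.32 was near the threshold (adjusted p = 0.0373). Without cytosol replicate 1 or without migrasome replicate 2 the call of Rnu11 was lost, at -0.79 and -0.61. It was also lost with no filter on low values (adjusted p = 0.0922), with quantile normalization (0.0944) and with no trend (0.0835). The log2 ratio of Rnu11 to Rnu12 was -0.78 and -0.91 in cytosol and 0.00 and -0.91 in migrasome, so the groups overlapped. Rnu11 overlaps an exon of Gm28872 on the other strand, and 2 loci are at least 95% identical to Rnu12.

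Rnu5g, a variant of the U5 snRNA, stood at 6.21 and 11.7 in cytosol and at 1.41 and 3.95 in migrasome, and was not tested. The named genes of the major spliceosomal RNAs gave almost no reads. Rnu1a1, Rnu1b1, Rnu1b2, Rnu1b6, Rnu2-10 and Rnu6-ps2 were listed at 0 in all 4 libraries, as was Rnu7. U1 and U2 snRNAs are needed by every cell that splices, so a value of 0 at these rows does not show that the RNA is absent. Rnu1a1 has 23 loci and Rnu2-10 has 12 loci in the annotation that are at least 95% identical, the closest of them 100%.

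Rows with other symbols that the annotation types as snoRNA, scaRNA or snRNA, most of them predicted models, were lower in migrasome or did not pass. Reads were found for 178 of 2747 such rows, and 41 were tested. Of these, 27 were lower and 0 higher, where 17.7% and 8.68% of all tested genes were. 13 of the 41, 7 of them called lower, reached the minimum through cytosol alone. Of the other 28, 20 were lower, where 17.1% of all genes so restricted were, and the median of the 28 was -1.61. By edgeR and by DESeq2, and at an unadjusted limma p under 0.05, 0 were higher as well. Without cytosol replicate 2 the count of lower rows was 15, and without migrasome replicate 1 a single row was higher. Gm26316, 99.5% identical to Rnu2-10 over its length, stood at 450 and 362 in cytosol and at 116 and 82.9 in migrasome (-2.03 ± 0.25, adjusted p = 0.000655). Gm22973, 95.3% identical to Rnu2-10, stood at 244 and 341 against 177 and 571, so the migrasome libraries lay on both sides of cytosol, and it did not pass (0.14 ± 0.45, adjusted p = 0.83). The 4 models closest to Rnu5g, at 82.8% to 94.0% identity, all fell, Gm25099 from 1502 and 980 to 369 and 334 (-1.79 ± 0.24, adjusted p = 0.000859). Gm23238, 97.6% identical to Rnu1a1, stood at 13.2 and 13.7 against 9.90 and 5.26 and did not pass.

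**Figure D2:**
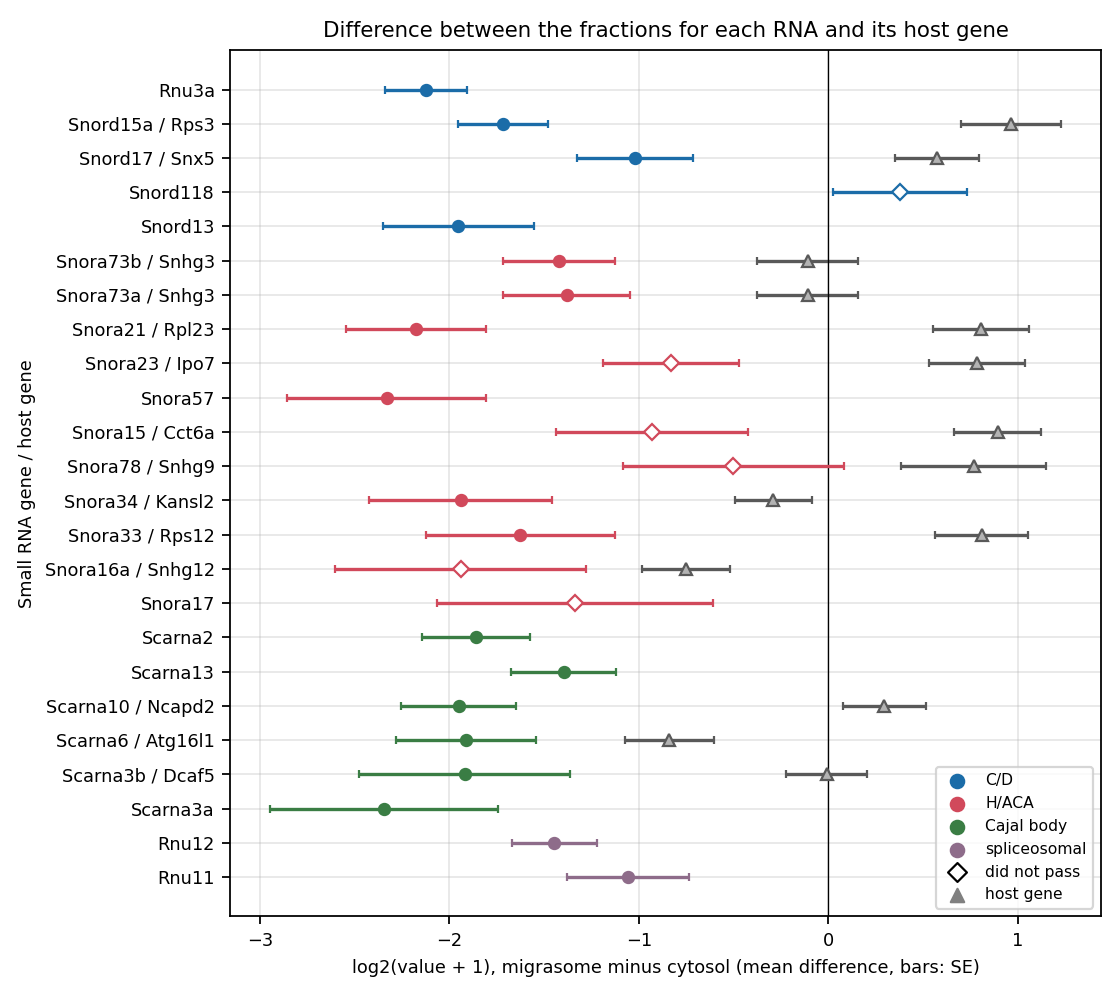
Difference between migrasome and cytosol, on the log2(value + 1) scale with bars of 1 SE, of the 24 tested small RNA genes (coloured by class, open where the limma test was not passed) and, as triangles, of the tested host gene that spans each. Snord118 is the RNA right of 0, and each RNA lies left of its host gene.

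Of the 24 tested genes, 16 lie inside a host gene on the same strand, and 14 of these pairs have a tested host, with 13 different hosts in all. Among the hosts, 5 were higher in migrasome, 2 were lower and 6 did not pass, with a median difference of 0.57. Of all tested genes, 8.68% were higher and 17.7% lower. The count of higher hosts was 0 without cytosol replicate 1 and 0 without cytosol replicate 2, and so was that of lower hosts. The RNAs of 4 pairs (Scarna3b, Snora16a, Snora33 and Snora34) were tested through their cytosol levels alone. In the other 10 pairs the difference of the small RNA was below that of its host in 10, with a median gap of -1.61. Leaving out the genes tested through cytosol alone, all 5 of which have a host, the median was -1.40 over 11 genes with a host and -1.65 over 8 without. Across the 10 pairs, which share their libraries and in 2 cases their host, the differences of RNA and host had a Pearson r of 0.36, given as a description.

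Ribosomal protein genes gave the widest gaps. Rps3, the host of Snord15a, rose from 15583 ± 411 in cytosol to 30567 ± 4731 in migrasome (0.96 ± 0.27, adjusted p = 0.026), while Snord15a fell. The log2 ratio of Snord15a to Rps3 was -5.98 and -6.15 in cytosol and -8.89 and -8.61 in migrasome. Rpl23, the host of Snora21, rose by 0.81 ± 0.25 (adjusted p = 0.0415), and the log2 ratio of Snora21 to it was -7.96 and -7.56 in cytosol and -11.06 and -10.42 in migrasome. The call of a rise was also made for Rps12, the host of Snora33, for Cct6a, a chaperonin subunit that hosts Snora15, and for Ipo7, a nuclear import receptor that hosts Snora23. Snora15 and Snora23 did not pass.

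Atg16l1, an autophagy gene that hosts Scarna6, fell by 0.84 ± 0.23 (adjusted p = 0.027), and Snhg12, which hosts Snora16a within an exon, fell by 0.75 ± 0.23 (adjusted p = 0.0387). Their RNAs lay below them by 1.07 and 1.19 on the log2 scale, among the smallest gaps. Snhg3, the host of both U17 RNAs, differed by -0.11 ± 0.27 and did not pass. The ratio of Snora73b to Snhg3 was 1.99 and 1.97 in cytosol and 1.17 and 0.17 in migrasome. In the 10 pairs not tested through cytosol alone, the RNA-to-host ratio was lower in both migrasome libraries than in both cytosol libraries in 10. Of these pairs, 7 are intronic. How often such ratios separate for other pairs of genes was not counted. The count follows in part from the lower RNAs and higher hosts given above, and is not read as support. 7 of the 24 overlap an exon of another gene, so some of their reads may be those of that gene.

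**Figure D3:**
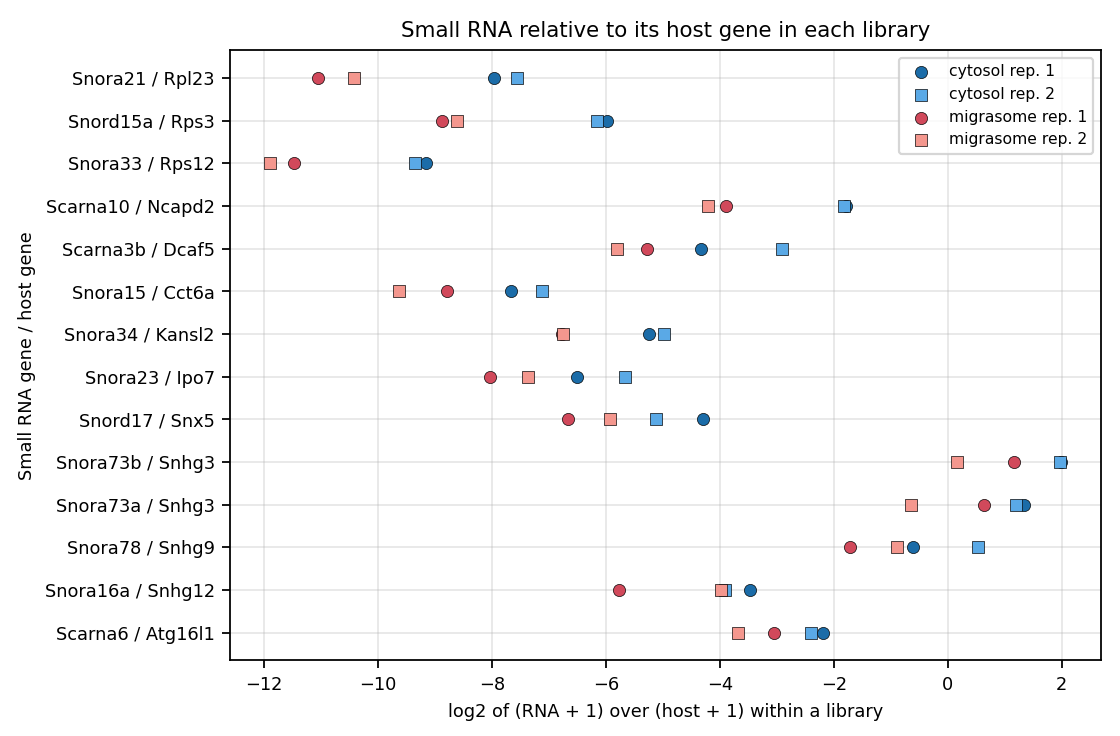
log2 ratio of each small RNA to its host gene, each value + 1, within each of the 4 libraries. Both migrasome libraries (red) lie left of both cytosol libraries (blue) in the 14 pairs, of which Scarna3b, Snora16a, Snora33 and Snora34 were tested through cytosol levels alone.

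Summed over all their genes, tested or not, the classes could be compared as shares of each library. C/D box genes took 0.0790% and 0.0971% of the cytosol libraries and 0.0175% and 0.0182% of the migrasome libraries, a 4.93-fold difference of the means. H/ACA genes took 0.0169% and 0.0234% against 0.00729% and 0.00522%, a 3.22-fold difference. scaRNA genes took 0.0165% and 0.0138% against 0.00430% and 0.00298%, a 4.17-fold difference. Spliceosomal genes took 0.0157% and 0.0115% against 0.00495% and 0.00420%, a 2.98-fold difference. Each class was lower in both migrasome libraries than in both cytosol libraries. All 164 genes together took 0.137% ± 0.0125 of cytosol and 0.0323% ± 0.00247 of migrasome (SD, n = 2 each).

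Single genes carried these sums. Rnu3a made up 89.5% of the C/D sum, Rnu12 61.3% of the spliceosomal sum, Scarna2 49.1% of the scaRNA sum and Snora73b 47.2% of the H/ACA sum. Without Rnu3a the C/D difference was 2.90-fold, and that of all genes together was 3.30-fold. Within a library, the log2 ratio of C/D to H/ACA was 2.22 and 2.06 in cytosol and 1.27 and 1.80 in migrasome, and without Rnu3a the groups overlapped, at -0.95 and -1.64 against -1.56 and -0.74. The ratio of scaRNA to spliceosomal genes was 0.07 and 0.27 in cytosol and -0.20 and -0.49 in migrasome, without overlap. That of scaRNA to H/ACA genes was -0.04 and -0.76 against -0.76 and -0.81, and the mean gap of -0.39 was -0.03 without cytosol replicate 1. The ratio of C/D, with Rnu3a, to spliceosomal genes was 2.33 and 3.08 in cytosol and 1.82 and 2.12 in migrasome. Its groups did not overlap, and the mean gap was -0.73. Ratios of spliceosomal to H/ACA and of C/D to scaRNA genes overlapped between the groups. No p-value is given for these ratios, since with 2 libraries a group an exact permutation p cannot fall under 0.33.

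**Figure D4:**
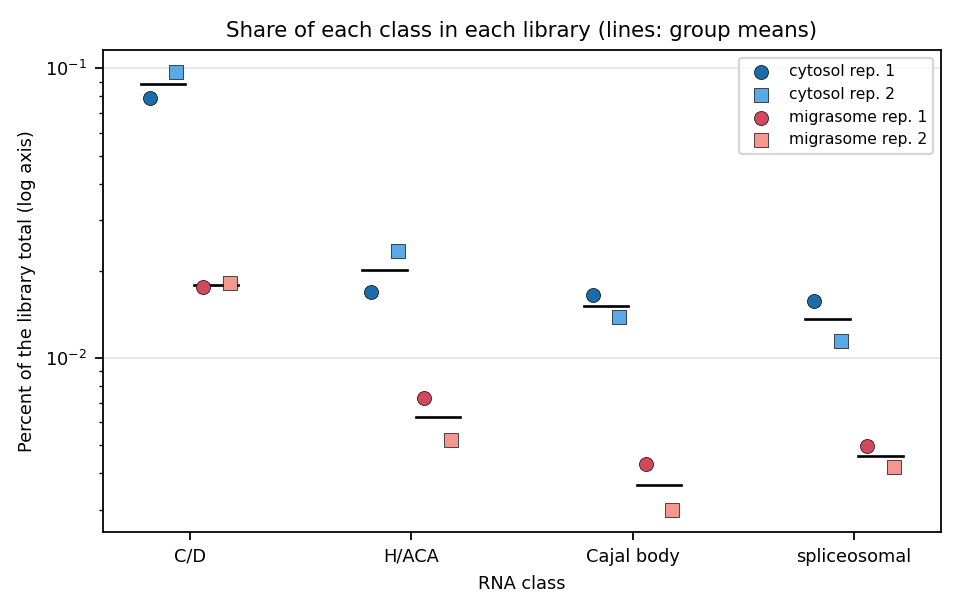
Share of each library's summed values taken by each class (percent, log axis), with points for the 2 cytosol (blue) and 2 migrasome (red) libraries and lines for group means. All 4 classes are lower in migrasome, and the C/D class, most of it Rnu3a, is the largest in every library.

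Length went with detection. None of the 90 genes under 100 bases was tested, and the most reads any of them had over the 4 libraries was 29. Of 62 genes from 100 to under 200 bases, 33 had reads and 16 were tested, and of 12 genes of 200 bases or more, 8 had reads and 8 were tested. The C/D class is the shortest, with a median of 86 bases against 132 for H/ACA genes and 140 for scaRNA genes. Of 50 genes with another locus at least 95% identical, 9 had reads, and of the 114 without one, 51 had reads. Among C/D genes none of the 29 with such a copy had reads, 17 genes of the Snord116 cluster and Rnu3b1 to Rnu3b4 among them, while 28 of the other 74 did. The sources used here do not say how fragments were selected for length, and the part of length or copies in the differences between the fractions was not tested.

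**Figure D5:**
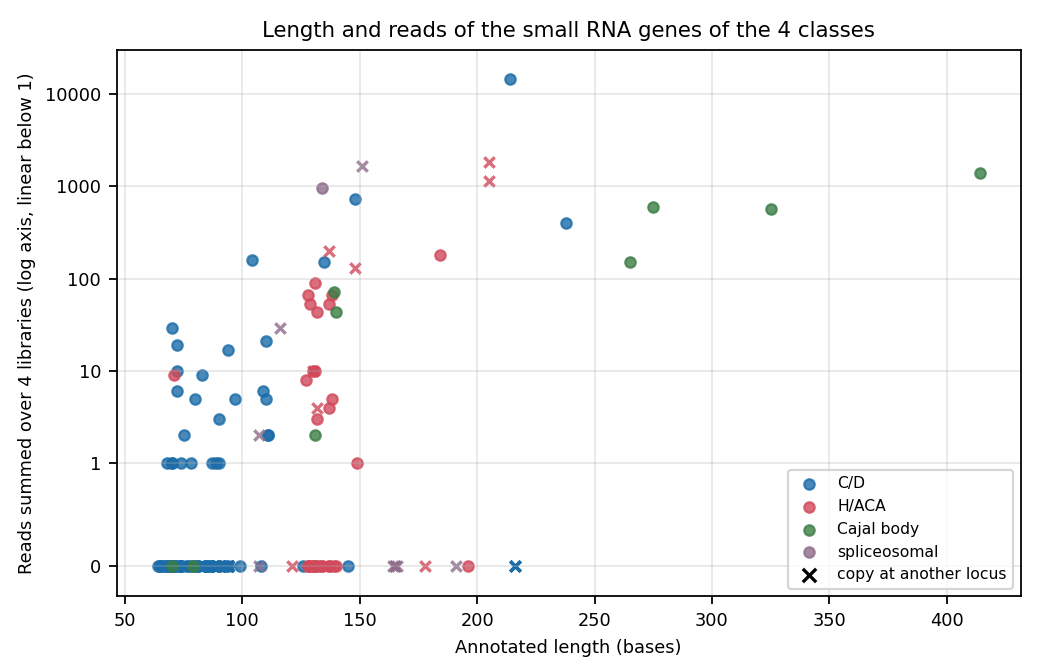
Annotated length in bases against the reads summed over 4 libraries (log axis, linear below 1) for the genes of the 4 classes, with crosses for genes that have a copy at another locus. Genes under 100 bases reach at most 29 reads, and Rnu3a reaches 14571.

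A further 36 genes had reads and missed the minimum. Their summed reads were 104 and 106 for cytosol but 14 and 22 for migrasome, or 80.7, 72.7, 19.8 and 29.0 as normalised read counts, and 16 of them had at most 3 reads in all. The mean was higher in cytosol for 31 and in migrasome for 5, but 19 had no migrasome read, where the value of 3 reads is 4.24 and 3.95. The largest of them was Snord104, at 6.21 and 10.3 in cytosol and 1.41 and 6.58 in migrasome, so the groups overlapped. Snord83b, at 2.33 and 4.80 against 5.66 and 3.95, was among the 5 with the higher mean in migrasome. At this depth, single genes of this set were not tested in the main fit. The setting with no filter on low values fitted all 60 genes with reads, these among them. It called 14 of the 60 lower, where 7.07% of all genes were. All of those called were among the 24 genes tested in the main fit, so no gene of this set was called.

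Other short genes did not share one direction. Of 115 tested genes outside the rule with exons of at most 414 bases, 41 were lower and 26 higher. Over all tested genes, 17.7% were lower and 8.68% higher. The 41 typed as snoRNA, scaRNA or snRNA, 13 of them tested through cytosol alone, were described above, and the other 74 gave 14 lower and 26 higher, with a median of 0.68. Without cytosol replicate 2, the 115 gave 19 lower and 16 higher, and without cytosol replicate 1 they gave 23 and 17.

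RNAs known from the nucleus, other than those described so far, were listed as a check of what the fraction labelled cytosol holds. Malat1, a nuclear non-coding RNA, stood at 10534 and 5593 in cytosol and at 5102 and 3882 in migrasome (-0.79 ± 0.31, adjusted p = 0.084). Of the 10 listed RNAs, 8 were tested and 5 were lower in migrasome (Rn7sk, Rpph1, Rmrp, Terc and Tug1). Over all tested genes, 17.7% were lower. Neat1 (-0.86 ± 0.37, limma adjusted p = 0.11) and Kcnq1ot1 (-0.58 ± 0.30, adjusted p = 0.16) did not pass by limma. By edgeR 6 of the 8 were lower and by DESeq2 7, where 19% and 14.7% of all genes were. At an unadjusted limma p under 0.05, 7 were lower, where 24.2% of all genes were. Xist was at 0 and Meg3 was below the minimum. The list summed to 385956 and 343878 in cytosol and to 83031 and 124605 in migrasome. Rpph1, Rn7sk and Rmrp held most of this sum, Rpph1 alone 227079 and 204102 against 48305 and 82103. The sum moved with the small RNAs described here, and the part of the listed RNAs in their differences was not tested. Of other cell types, epithelial markers summed to at most 2.83 and endothelial markers to at most 1.37 in any library, Epcam, Krt8 and Cdh1 being at 0 in cytosol replicate 1. Immune markers summed to 16.3 and 24.7 in cytosol and 11.3 and 11.8 in migrasome, and neural markers to 38.8 and 34.3 against 77.8 and 84.2. Of 5 fibroblast markers, Col1a1, Col1a2 and Pdgfrb fell and Vim rose.

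Most mRNAs of the proteins that these RNAs work with did not pass the test. Nor did 7998 of all 10860 tested genes, of which 8.68% were higher and 17.7% lower. Of 110 listed genes, 106 were tested, of which 14 were higher in migrasome, 1 was lower and 91 did not pass, with a median of 0.33. The counts of higher genes without cytosol replicates 1 and 2 were 4 and 3, and without migrasome replicate 2 it was 42, with 7 lower. The C/D core genes Fbl, the methyltransferase, Nop56, Nop58 and Nhp2l1 did not pass, with a median of 0.37. The H/ACA core genes Dkc1, the pseudouridine synthase, Nop10, Nhp2 and Gar1 did not pass either, with a median of 0.43. In each of the 2 sets 1 gene was higher at an unadjusted limma p under 0.05. edgeR called 0 in either set, and DESeq2 called 1, Nop58. Among 21 genes of particle assembly and the Cajal body, 4 rose, led by Naf1, an H/ACA assembly factor, from 123 and 89.2 to 225 and 224 (1.09 ± 0.25, adjusted p = 0.0122). Znhit6, Rpap3 and Tcof1 were the others, while Coil, which encodes the Cajal body protein coilin, differed by -0.28 and did not pass.

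In the spliceosome, 7 of 36 genes for proteins of single particles rose and 0 fell, where 8.68% and 17.7% of all tested genes did. The largest of these differences was that of Snrnp200, a U5 helicase, from 864 and 705 in cytosol to 2058 and 1528 in migrasome (1.18 ± 0.23, adjusted p = 0.00489). Eftud2 (1.08) and Prpf8 (0.99), also of the U5 particle, and Sf3b1 (0.93), Sf3b2 (0.85), Sf3a2 (0.81) and Sf3a3 (0.71), of the U2 particle, rose as well. None of the 7 listed genes for proteins particular to the minor spliceosome passed (median 0.15), beside the lower Rnu11 and Rnu12. Genes for proteins that both spliceosomes share are not among these 7. Of the 7, the count was 0 as well at an unadjusted limma p under 0.05, by edgeR and by DESeq2. In the Sm ring 1 of 7 genes, Snrpe (0.67), was higher. In the Lsm ring 0 of 9 were, with 2 at an unadjusted p under 0.05 and 0 by edgeR and by DESeq2. Among 25 genes for snRNA transcription, processing and export, the Integrator subunits Ints4 (1.07) and Ints1 (0.65) rose and Ints5 (-0.99) fell, from 385 and 305 to 188 and 157.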

How the data were processed

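RNA of migrasomes and of cytosol was sequenced in 2 libraries per group, and titles gave the groups. Per the submitters' processing notes, the tools were DESeq, HTSeq, STAR, Trimmomatic, cutadapt and FastQC on GRCm38, with no role, order or version given. The deposited table holds 1 signal per gene and library, a read count scaled by a factor of that library, as the values show: all (100%) were whole multiples of the value of 1 read within 0.001. Not given in the sources used here are the annotation, strand setting and handling of reads that fit several places.

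The genes and lists were chosen with earlier results of these data known. Values were tested as log2(value + 1) with limma 3.58.1 (eBayes with a trend, no replicate block) in R 4.3.3, over genes with at least 10 in at least 2 libraries, with Benjamini-Hochberg adjustment over all genes. The values being normalised, count tests were alternatives, with edgeR 4.0.16 (quasi-likelihood) or DESeq2 1.42.0 on the recovered reads. A gene with no read lies below the value of 3 reads, 2.33, 2.06, 4.24 and 3.95 in cytosol 1 and 2 and migrasome 1 and 2. Such limits cover counting error alone, because reads lack molecular identifiers and may repeat a molecule. Chi-square over degrees of freedom was 17.6 between the cytosol and 27.9 between the migrasome libraries, so neither pair is 1 library.

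Positions, hosts (the shortest gene on the same strand that spans the RNA) and sequences came from GENCODE M21, copies from blastn 2.17.0, and figures from matplotlib 3.10.9. The text names the genes past the threshold, the most abundant of each class, low genes by mean, their hosts and the most abundant partners, and leaves out some. Snord83b, Tmem107, the other partner genes and the unnamed models were picked with their values in view. Tests were tried on simulated data. Some sequences are not reported here.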

Additional observations from a re-analysis of the deposited data

How the results depend on the processing

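Of the 18 genes called lower, 9 kept that call in each of the 14 alternative settings in which they were tested (Rnu12, Rnu3a, Scarna10, Scarna2, Snora21, Snora73a, Snora73b, Snord13 and Snord15a). Rnu11, Snord17, Scarna3b and Snora33 lost it with no filter on low values and with quantile normalization, and Rnu11 and Snord17 with no trend. With DESeq2 the call was lost for Scarna3a, Scarna3b, Snora33, Snora34 and Snord17. The settings without Rnu3a and with summed deposited values were chosen after seeing the data, and causes of the changes below were not tested.

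Lower small RNA genes numbered 11 to 19 with 1 library left out and 10 of 10 at a mean of at least 50, where fewer genes are tested. With a replicate block 20 were lower, Snora16a and Snora23 added, while lower calls over all genes rose to 2621 (24.1%). Same-numbered libraries deviated together with r = 0.226 over 10860 genes, but 2 pairs and the labels do not show that the numbers pair them. Over all genes, lower calls ranged from 1090 to 2838 and higher calls from 212 to 2061 with 1 library left out. Higher calls were 393 with no filter, 483 with no trend, 322 with the same total per library and 1802 with a replicate block (16.6%). The same total per library gave 2522 lower against 322 higher (23.2% and 2.97%), and quantile normalization gave 1403 against 1194 (12.9% and 11%). These scalings put the median of all genes at -0.27 and 0.11.

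Lower host genes numbered 0 with no filter, quantile normalization and no trend, 1 with DESeq2 and 0 to 2 with 1 library left out. Higher host genes numbered 0 with no filter and quantile normalization, 2 with the same total, 3 with no trend and 0 to 6 with 1 library left out. Other short genes gave 26 lower and 15 higher at a mean of at least 50, 17 higher with no filter, and 19 to 51 lower and 16 to 26 higher over the left-out libraries and all 4. Protein partners gave 9 higher with no filter and 9 with no trend, 7 higher and 7 lower with the same total, 35 and 8 with a replicate block, 3 lower with edgeR, and 3 to 42 higher and 0 to 7 lower with 1 library left out. Unnamed models gave 17 lower at a mean of at least 50, and 15 to 30 lower and 0 to 1 higher with 1 library left out.

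The C/D median was -0.68 with no filter, and the scaRNA median -1.54 with a pseudocount of 5 and -1.59 with quantile normalization. The C/D log2 share ratio was -2.30, with -2.44 to -2.14 over left-out libraries, -1.54 without Rnu3a and -2.03 from summed deposited values, from which the spliceosomal ratio was -1.29. Without Rnu3a, the gap between migrasome and cytosol in the C/D ratio was 0.15 to H/ACA, 0.019 to spliceosomal and 0.54 to scaRNA genes. With Rnu3a these gaps were -0.61, -0.73 and -0.22. Snora78 ranged from -1.18 to 0.026 over the left-out libraries, above 0 without migrasome replicate 1. Leaving out a library of a pair leaves 1 sample, which is assumed to vary like the other group.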

Other observations

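The most abundant unnamed models of these RNA types were Gm24265 and Gm24407, typed as snRNA. Gm24265 stood at 2551 and 2140 in cytosol and at 733 and 687 in migrasome (-1.72 ± 0.20, limma adjusted p = 0.000555), and Gm24407 at 1629 and 1366 against 451 and 417 (-1.78 ± 0.20). Larger differences were those of Gm22009, typed as scaRNA, at 964 and 626 against 82.0 and 61.9 (-3.43 ± 0.27), and of Gm23262, typed as snoRNA, at 618 and 460 against 87.7 and 40.8 (-3.13 ± 0.34). None of these 4 matched a named gene of the set in the search used here. Among the 28 models not tested through cytosol alone, 9 of 15 snoRNA, 3 of 4 scaRNA and 8 of 9 snRNA models were lower. Of all genes so restricted, 17.1% were.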
